A study of Mus musculus with 7 samples.

Results

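The results below describe 10 mouse genes of cholesterol export and its control by the liver X receptors (LXRs) in bone-marrow-derived macrophages (BMDMs): Abca1, Abcg1, Nr1h2, Nr1h3, Apoe, Mylip, Ch25h, Npc1, Npc2 and Scarb1. The members were named by symbol, not by a measured value, and each was found in exactly 1 row of the 48440 genes of the LPS table and in 1 row of the 55352 genes of the AAV table. All 10 passed the filter on low values in both tables. BMDMs are macrophages grown from the marrow of wild-type mice (C57BL/6 in the study's methods, young adults of both sexes) with 20 ng/mL M-CSF, the growth factor that drives macrophage differentiation. In one experiment BMDMs were left untreated (LPS 0h) or were given 100 ng/mL LPS, a bacterial cell wall component that triggers Toll-like receptor 4, for 2 h (LPS 2h) or 4 h (LPS 4h), and each time is a single library. The other experiment used 48 h of transduction by adeno-associated virus (AAV) carrying Shisa3 (AAV-SHISA3, 2 samples) or green fluorescent protein (AAV-GFP, 2 samples). Per the methods, both vectors were of serotype 1 and drove their insert from the ubiquitous CAG promoter, so that all 4 samples of that experiment carry a virus and none is an untransduced control. The labels do not say whether samples of 1 group came from separate mice or cultures, and the p-values then measure the spread between these samples, which may be technical.

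Macrophages take up lipoprotein cholesterol and cannot break the sterol ring down, so the surplus is either stored as esters or handed to acceptors outside the cell. Cholesterol released in the lysosome leaves it through the soluble protein encoded by Npc2 and the membrane protein encoded by Npc1. Oxidised cholesterols bind LXRβ (Nr1h2) and LXRα (Nr1h3), nuclear receptors that pair with a retinoid X receptor and sit on repeats of the AGGTCA element 4 bases apart (DR4). Their classical targets in macrophages are the transporters Abca1 and Abcg1, the lipoprotein Apoe and the ubiquitin ligase Mylip, which limits lipoprotein uptake. Ch25h makes 25-hydroxycholesterol, an oxysterol that binds LXRs and holds back the sterol-regulated factor SREBP2, and Scarb1 encodes the HDL receptor SR-BI, which passes cholesterol in either direction.

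The promoters of Ch25h and Abca1 are shown because Ch25h was the member with the largest difference in both experiments and Abca1 is the best known LXR target of the list. The sequences are from RefSeq (GRCm38.p6), run 5′ to 3′ on the gene's own strand, and cover 250 bases before the annotated start to 50 bases after it. RefSeq promoters were at hand for 7 of the 10 members: Abca1, Apoe, Ch25h, Mylip, Npc2, Nr1h2 and Nr1h3. Capitals mark the motif matches named after the sequences.
Ch25h, chr19:34475099-34475398, minus strand: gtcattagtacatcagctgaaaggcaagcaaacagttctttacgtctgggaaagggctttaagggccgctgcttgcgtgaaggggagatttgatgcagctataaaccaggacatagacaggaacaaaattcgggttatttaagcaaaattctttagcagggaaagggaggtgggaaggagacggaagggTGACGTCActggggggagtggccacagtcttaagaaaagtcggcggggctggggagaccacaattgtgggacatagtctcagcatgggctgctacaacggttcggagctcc
Abca1, chr4:53159846-53160145, minus strand: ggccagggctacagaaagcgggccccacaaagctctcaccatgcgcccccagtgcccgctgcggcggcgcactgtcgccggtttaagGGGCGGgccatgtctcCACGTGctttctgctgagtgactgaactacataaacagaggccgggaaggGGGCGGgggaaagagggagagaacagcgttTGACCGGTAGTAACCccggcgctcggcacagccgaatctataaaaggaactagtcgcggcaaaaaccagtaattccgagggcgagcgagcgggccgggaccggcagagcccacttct
In Ch25h the capitals mark the cAMP response element TGACGTCA, whose first base lies at -61 from the start, and which 1.79% of 32851 mouse promoters of the same length hold on either strand. In Abca1 they mark GC boxes (GGGCGG) at -163 and -97, an E-box (CACGTG) at -147 and, on the opposite strand from -67, a loose DR4 pattern (GGTNA occurring again after 5 bases). The GC box is in 35.66% of the promoters, the E-box in 7.15% and the loose DR4 in 0.7184%. The cAMP response element and the loose DR4 were added to the search after the promoters had been read. The strict DR4 (AGGTCA, 4 bases, AGGTCA), held by 0.01522% of promoters, was in none of the members' windows, nor were the single AGGTCA element (16.26%), the interferon-stimulated response element (3.443%) or the NF-kB element (8.459%). Mylip held a GC box at -44 and Npc2 held 3, at -173, -114 and -93, while none of the motifs searched was in the windows of Apoe, Nr1h2 and Nr1h3. These are matches of letters in a window of 300 bases, not evidence of binding.

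In GRCm38, Abca1 lies on the minus strand of chromosome 4 (53030787 to 53159895) with 50 exons in its main transcript, whereas Ch25h is a gene of 1 exon on chromosome 19 (34473778 to 34475164, minus strand). The exons of Ch25h share 159 bases with the opposite-strand Gm26902, those of Npc1 share 511 with Rmc1 and 90 with Gm15956, and those of Nr1h3 share 34 with Gm13783. Whether the counting used strand is not given in the sources used here, so reads in these overlaps cannot be assigned with certainty. The other 7 members share no exon bases with another gene.

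The libraries were checked before the members were read. The LPS values are reads divided by 1 factor per library. The recovered totals were 15588502 reads for LPS 0h, 7263258 for LPS 2h and 32659392 for LPS 4h, which leaves LPS 2h with the widest counting error. LPS-induced genes followed the time labels, with Tnf at 137, 36109 and 19042 (value at 0 h, 2 h and 4 h), Il1b at 52.7, 28065 and 25126, Il6 at 7.08, 1308 and 2197, Nos2 at 5.79, 5948 and 51437, Cxcl10 at 356, 65071 and 65591, Ifit1 at 767, 23966 and 46878, and Rsad2 at 1331, 77776 and 169038. In the AAV table, the gene carried by the vector, Shisa3, stood at 7.88 and 10.85 TPM (transcript counts corrected for gene length and scaled to 1 sum) in AAV-GFP and at 12.31 and 17.81 TPM in AAV-SHISA3. The groups did not overlap, but the difference of 0.63 ± 0.22 (SE) on the log2 scale did not pass the test (limma, adjusted p = 0.138). All 10 macrophage markers were at 1 TPM or more in every AAV sample, with summed levels of 35779 to 37935 TPM in AAV-GFP and 36973 to 39449 TPM in AAV-SHISA3. The lymphocyte markers Cd3d and Cd3e were at 0 in all 4 samples. The 8 neutrophil markers summed to 592 and 564 TPM in AAV-GFP and to 1090 and 679 TPM in AAV-SHISA3. Of the 8, 2 were past the threshold and higher, as was 1 of the 10 macrophage markers, beside 2.23% of all genes tested. The part of the neutrophil markers in the results below was not tested. In bulk RNA, fewer cells of a type and less RNA per cell cannot be told apart.

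In the LPS time course the members parted in direction. Ch25h was barely detected at 0 h and far higher at 2 h and 4 h, Nr1h3 was highest at 4 h, and Mylip, Npc1, Scarb1 and Abcg1 were lower at both times than at 0 h. Abca1, Apoe and Nr1h2 were higher at 2 h and lower again at 4 h. With 1 library per time point there is no test, and the 95% intervals given here are exact intervals of a ratio of reads, which cover counting error only. Since the deposited factors differ from the library totals, each direction was read under 4 scalings: the deposited one, equal library totals, equal library medians and edgeR's TMM factors. Against the deposited scaling, equal totals shift the median gene by -0.77 on the log2 scale at 4 h, equal medians by 0.37 and TMM by -0.05. At 2 h the shifts are -0.63, 0.31 and -0.07.

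Of the receptors, Nr1h2 stood at values of 806, 1417 and 1077 at 0 h, 2 h and 4 h (1253, 649 and 1981 reads), which is 1.76 times the 0 h level at 2 h (95% interval 1.60 to 1.94) and 1.34 times at 4 h (1.24 to 1.44). With equal totals the 4 h ratio was 0.755, so the direction at 4 h depends on the scaling. Nr1h3 stood at 80.4, 153 and 223 (125, 70 and 410 reads), or 1.90 times at 2 h (1.40 to 2.57) and 2.77 times at 4 h (2.26 to 3.41). Nr1h3 was higher at 4 h in all 4 scalings, with a ratio of 1.57 (1.28 to 1.93) under equal totals. At 2 h the interval under equal totals ran from 0.884 to 1.62 and included no difference. The ratio of Nr1h3 to Nr1h2 reads within a library, which no scaling can move, was 0.0998 at 0 h (interval 0.0823 to 0.120) and 0.108 at 2 h (interval 0.0831 to 0.138), against 0.207 at 4 h (interval 0.186 to 0.230). LXRα transcripts thus made up a larger part of the LXR pair in the 4 h library than in the other two.

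The transporter Abca1, which loads cholesterol onto lipid-poor apolipoprotein A-I, stood at 8835, 15696 and 10080 (13735, 7188 and 18550 reads). Its ratio to 0 h was 1.78 at 2 h (1.73 to 1.83) and 1.14 at 4 h (1.12 to 1.17), and under equal totals 1.12 and 0.645. Abcg1, which exports cholesterol to mature HDL, stood at 2013, 1057 and 1412 (3129, 484 and 2599 reads), or 0.525 times the 0 h level at 2 h (0.476 to 0.578) and 0.702 times at 4 h (0.666 to 0.739). The pair of transporters therefore moved apart, and Abca1 had 4.39 times the reads of Abcg1 at 0 h, 14.9 times at 2 h and 7.14 times at 4 h. Apoe, the lipoprotein that macrophages secrete as a cholesterol acceptor, stood at 74560, 124640 and 74935, which is 1.67 times at 2 h (1.66 to 1.69) and 1.01 times at 4 h (0.997 to 1.01). Mylip stood at 587, 234 and 270 (912, 107 and 496 reads), or 0.398 times at 2 h (0.323 to 0.487) and 0.459 times at 4 h (0.411 to 0.513). Abcg1 and Mylip were below 0 h at both times in all 4 scalings, whereas Abca1 and Apoe were above it at 2 h in all 4 and changed direction with the scaling at 4 h.

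Ch25h had 2 reads at 0 h, 203 at 2 h and 2575 at 4 h, which are values of 1.29, 443 and 1399. The ratio to 0 h was 345 at 2 h (94.2 to 2864) and 1088 at 4 h (301 to 8986), and even under equal totals the 4 h ratio was 615 (170 to 5077). Ch25h had the 12th largest rise at 4 h of the 17854 genes that passed the filter (a mean over the libraries of 1 or more), on the log2(value + 1) scale. From 2 h to 4 h it was 3.16 times higher still (2.74 to 3.66), the only member at least 2-fold apart between those times.

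The lysosomal pair also moved apart. Npc1 stood at 4136, 2808 and 1864 (6429, 1286 and 3431 reads), or 0.679 times the 0 h level at 2 h (0.639 to 0.721) and 0.451 times at 4 h (0.432 to 0.470). Npc2 stood at 10272, 16035 and 20305 (15969, 7343 and 37366 reads), or 1.56 times at 2 h (1.52 to 1.61) and 1.98 times at 4 h (1.94 to 2.01). Under equal totals Npc2 was close to level, at 0.987 times at 2 h and 1.12 times at 4 h, while Npc1 was lower in all 4 scalings. Npc1 had 0.403 times the reads of Npc2 at 0 h, 0.175 times at 2 h and 0.0918 times at 4 h. The HDL receptor gene Scarb1 stood at 1122, 860 and 596 (1744, 394 and 1096 reads), or 0.767 times at 2 h (0.686 to 0.856) and 0.531 times at 4 h (0.492 to 0.573), and was lower in all 4 scalings.

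**Figure D1:**
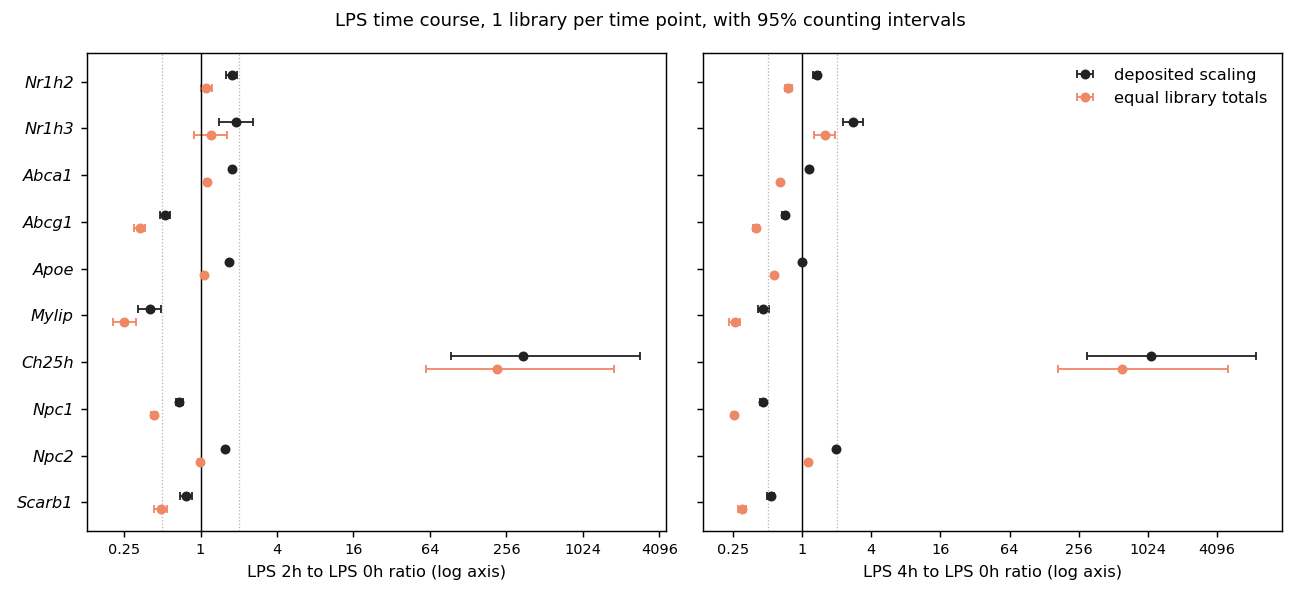
Ratio of LPS 2h (left) and LPS 4h (right) to LPS 0h for the 10 genes on a log axis, with 95% counting intervals, under the deposited scaling (black) and equal library totals (orange); 1 library per time point, dotted lines at 0.5 and 2. Ch25h lies far to the right under either scaling, at 345 and 1088 with the deposited one, while Abcg1, Mylip, Npc1 and Scarb1 lie left of 1 under both.

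On the log2(value + 1) scale 1 of 10 members (Ch25h) was at least 2-fold higher at 2 h than at 0 h and 1 (Mylip) at least 2-fold lower, where 20.5% of 17854 genes were higher and 24.7% lower by that much. At 4 h, 2 members (Ch25h and Nr1h3) were at least 2-fold higher and 2 (Mylip and Npc1) at least 2-fold lower, beside 22.2% and 23.6% of all genes. With equal totals the counts at 4 h became 1 higher and 4 lower, beside 13.1% and 43.9%. From 2 h to 4 h, 1 member was higher and 0 were lower by that much, beside 17.9% and 15.2% of all genes. The members' counts lie near these shares, so the number of members that moved is no result about the list. The median member differed by 0.69 at 2 h and by 0.10 at 4 h, where the median gene differed by -0.05 and -0.04. These medians move with the scaling, to 0.03 and -0.72 for the members and -0.68 and -0.81 for all genes under equal totals, and to 1.00 and 0.47 for the members and 0.26 and 0.33 for all genes with medians centred.

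The wider pathway was read from 4 lists. Of 14 LXR partners and co-regulators with enough reads, 7 were at least 2-fold lower at 4 h and 1 was higher, with a median log2 difference of -0.99, and under the 4 scalings the count lower ran from 6 to 10, where that over all 17854 genes ran from 3036 to 7845. The retinoid X receptor Rxra, the main partner of LXRs, stood at 1434 at 0 h, 548 at 2 h and 115 at 4 h (log2 difference -3.63). Tbl1xr1, a subunit of nuclear receptor corepressor complexes, stood at 2670, 852 and 601 (-2.15). The coactivator Ncoa5 was the single gene of this list at least 2-fold higher, at 216, 1125 and 1198 (2.47).

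The other lists are given beside 22.2% of all genes at least 2-fold higher and 23.6% lower at 4 h, or 13.1% and 43.9% under equal totals. Among 20 further LXR targets, 2 were at least 2-fold higher at 4 h and 3 lower, with a median of -0.03, and under equal totals 1 was higher and 6 lower (median -0.83). The small GTPase gene Arl4c stood at 2833, 397 and 70.6 (-5.31), the fatty acid desaturase genes Fads1 at 1623, 819 and 291 (-2.47) and Scd2 at 982, 288 and 371 (-1.40). The transglutaminase gene Tgm2 stood at 479, 9405 and 7603 (3.99) and the lipoprotein lipase gene Lpl, just under 2-fold higher, at 3581, 4228 and 7042 (0.98). The other gene that was 2-fold higher was Abcg4, with 2 reads at 0 h and 9 at 4 h. Of 20 uptake, storage and trafficking genes, 6 were at least 2-fold higher and 4 lower (median 0.12), and 6 and 7 under equal totals (median -0.70). The scavenger receptor gene Msr1 stood at 959, 6049 and 17692 (4.20), the caveolin gene Cav1 at 25.7, 345 and 495 (4.21) and Gramd1a, which encodes a sterol carrier between the plasma membrane and the endoplasmic reticulum, at 1004, 10936 and 7003 (2.80). The cholesteryl ester hydrolase gene Nceh1 stood at 3838, 1758 and 904 (-2.09), the sterol carrier gene Gramd1b at 1088, 1103 and 371 (-1.55) and the esterifying enzyme gene Soat1 at 6602, 3256 and 2726 (-1.28), so that genes for making and for hydrolysing cholesteryl esters were both lower. The lysosomal lipase gene Lipa was the fourth lower gene (-1.02). Of 13 oxysterol enzymes and sensors, 3 were at least 2-fold higher and 4 lower (median -0.36), and 1 and 7 under equal totals (median -1.18). With medians centred, 5 LXR targets were higher and 3 lower, 7 and 2 of the uptake list, and 3 and 3 of the oxysterol list. Over all 17854 genes, 5285 were then higher and 3036 lower. Gpr183, the receptor for a further product of 25-hydroxycholesterol, stood at 395, 37.1 and 39.7 (-3.28), and Cyp27a1, the other main oxysterol enzyme of macrophages, at 1629, 880 and 410 (-1.99), opposite to Ch25h. The sterol reductase gene Dhcr7 stood at 167, 65.5 and 30.4 (-2.41), the SREBP2 gene Srebf2 at 840, 2896 and 2945 (1.81) and its retention factor Insig1 at 1164, 2767 and 3648 (1.65). The remaining counted genes were near the limit of detection, Cyp7b1 with 0 reads at 0 h and 6 at 4 h, and Sult2b1 with 2 and 0.

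The AAV experiment was designed to overexpress SHISA3, although the difference in Shisa3 itself did not pass the test (limma, adjusted p = 0.138). The paper separately reports higher Shisa3 mRNA and protein in BMDMs after 48 h of AAV-Shisa3 infection. Ch25h and Scarb1 rose in AAV-SHISA3 and no member fell past the threshold. Ch25h stood at 15.09 and 14.46 TPM in AAV-GFP and at 63.05 and 49.18 TPM in AAV-SHISA3, and the groups were far apart. The difference on the log2(TPM + 1) scale was 1.85 ± 0.14 (SE; limma, adjusted p = 0.0113; 95% interval 1.51 to 2.18), a 3.80-fold ratio of mean TPM. It had the 12th smallest p of 11218 genes tested and the 20th largest rise. Scarb1 stood at 52 and 54.04 TPM in AAV-GFP and at 77.91 and 71.39 TPM in AAV-SHISA3, higher in both samples, with a difference of 0.48 ± 0.09 (adjusted p = 0.0353; interval 0.27 to 0.69). Over all genes tested, 2.23% were higher and 4.10% lower past the threshold, beside 2 of the 10 members higher and 0 lower. Both calls also depend on the fit: without the variance trend the adjusted p was 0.0557 for Ch25h and 0.0818 for Scarb1, and with no filter on low values it was 0.105 and 0.121. Ch25h no longer passed without AAV-GFP replicate 1 (adjusted p = 0.145) or without AAV-GFP replicate 2 (adjusted p = 0.117), and Scarb1 did not pass without any 1 of the 4 samples (adjusted p = 0.168 and 0.163 without AAV-GFP replicates 1 and 2, and 0.141 and 0.0973 without AAV-SHISA3 replicates 1 and 2). Fits on 3 samples called 0 to 32 genes higher and 0 to 10 lower in the whole table, where the fit on 4 called 250 and 460.

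**Figure D2:**
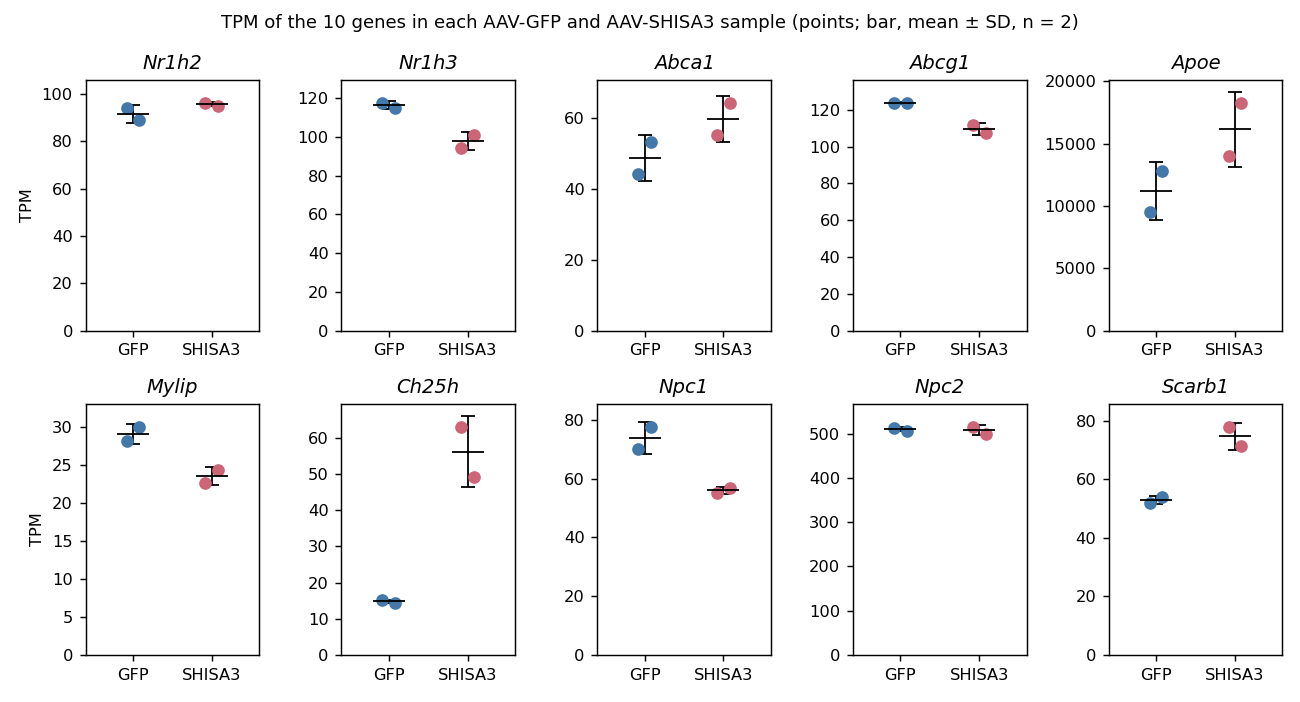
TPM of the 10 genes in the 2 AAV-GFP and 2 AAV-SHISA3 samples, each panel with its own axis from 0; points are samples and bars the mean ± SD (n = 2). Ch25h moves from 15.09 and 14.46 TPM to 63.05 and 49.18 TPM, while Npc2 stays between 500.08 and 515.72 TPM.

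The receptors showed small differences that did not pass. Nr1h2 stood at 94.03 and 88.84 TPM in AAV-GFP and 96.34 and 95.03 TPM in AAV-SHISA3 (difference 0.07 ± 0.08, adjusted p = 0.606, interval -0.12 to 0.25). Nr1h3 stood at 117.76 and 114.89 TPM and at 94.39 and 101.07 TPM, lower in both AAV-SHISA3 samples (-0.25 ± 0.08, adjusted p = 0.109, interval -0.44 to -0.06). The direction of Nr1h3 was thus opposite to that at LPS 4h, and the ratio of Nr1h3 to Nr1h2 was 1.25 and 1.29 in AAV-GFP and 0.980 and 1.06 in AAV-SHISA3.

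The target genes lay in both directions, and none passed the threshold. Abca1 stood at 44.2 and 53.4 TPM in AAV-GFP and 55.16 and 64.43 TPM in AAV-SHISA3 (0.29 ± 0.13, adjusted p = 0.204). Abcg1 stood at 123.41 and 123.92 TPM and at 111.81 and 107.3 TPM (-0.17 ± 0.07, adjusted p = 0.186). Neither pair of groups overlapped, and the ratio of Abca1 to Abcg1 was higher in each AAV-SHISA3 sample, at 0.493 and 0.601, than in each AAV-GFP sample, at 0.358 and 0.431. Apoe was among the most abundant transcripts, ranked 7th and 6th of all genes by TPM in AAV-GFP and 5th and 4th in AAV-SHISA3. It stood at 9526.75 and 12830.69 TPM and at 14031.97 and 18303.98 TPM (0.54 ± 0.18, adjusted p = 0.136, interval 0.08 to 0.99), with the largest standard error of any member. Mylip stood at 28.12 and 30 TPM in AAV-GFP and 22.66 and 24.35 TPM in AAV-SHISA3 (-0.29 ± 0.10, adjusted p = 0.121). Both AAV-SHISA3 samples were thus below both AAV-GFP samples, and the difference did not pass.

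Npc1 came closest to the threshold of the members that did not pass. It stood at 70.08 and 77.65 TPM in AAV-GFP and 55.2 and 56.95 TPM in AAV-SHISA3 (-0.39 ± 0.09, adjusted p = 0.0586, interval -0.61 to -0.17), and it passed when genes had to reach 1 TPM in every sample (adjusted p = 0.0452). Its lysosomal partner Npc2 stood at 513.48 and 506.96 TPM and at 515.72 and 500.08 TPM, the only member whose groups overlapped (-0.01 ± 0.07, adjusted p = 0.954, interval -0.17 to 0.16). The ratio of Npc1 to Npc2 was 0.137 and 0.153 in AAV-GFP and 0.107 and 0.114 in AAV-SHISA3.

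**Figure D3:**
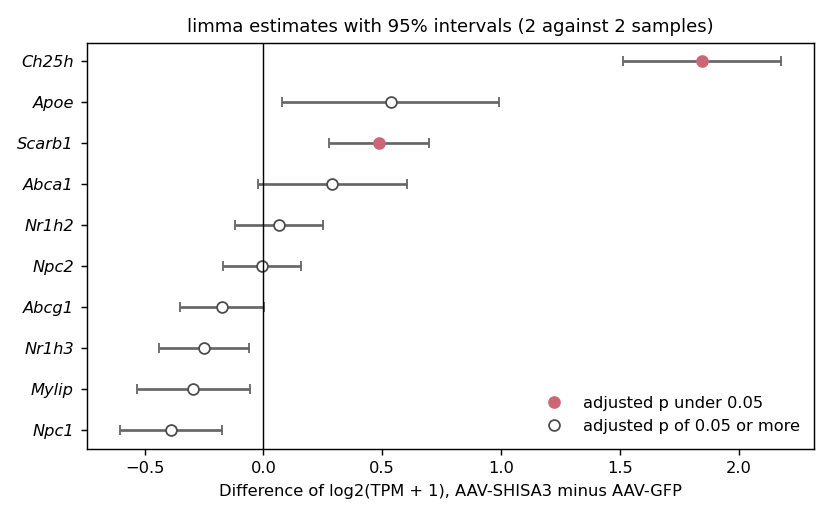
Difference of log2(TPM + 1), AAV-SHISA3 minus AAV-GFP, for the 10 genes with limma's 95% intervals (2 against 2 samples); filled points have an adjusted p under 0.05. Ch25h (1.85) and Scarb1 (0.48) pass, and the intervals of Nr1h2, Npc2, Abca1 and Abcg1 include 0.

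Counting only whether the groups overlapped, 5 members were higher in both AAV-SHISA3 samples than in both AAV-GFP samples and 4 were lower, where 18.2% of all genes tested were higher and 41.2% lower in this way. An exact permutation test of 2 against 2 samples cannot give a p below 0.333, so no single gene can pass one. At an unadjusted p under 0.05 there were 3 members higher and 3 lower, beside 8.21% and 19.8% of all genes tested. The median difference was 0.03 over the members and -0.10 over all genes.

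The order of the members by mean TPM in AAV-GFP ran Apoe (11179 ± 2336, SD, n = 2), Npc2 (510 ± 4.61), Abcg1 (124 ± 0.361), Nr1h3 (116 ± 2.03), Nr1h2 (91.4 ± 3.67), Npc1 (73.9 ± 5.35), Scarb1 (53.0 ± 1.44), Abca1 (48.8 ± 6.51), Mylip (29.1 ± 1.33) and Ch25h (14.8 ± 0.445). Of these neighbours, Scarb1 and Abca1 overlapped in their samples. In AAV-SHISA3 Ch25h moved from last place to the 8th (56.1 ± 9.81), level with Npc1 (56.1 ± 1.24) and Abca1 (59.8 ± 6.55), whose samples overlapped with its own, and Nr1h3 (97.7 ± 4.72) overlapped with Nr1h2 (95.7 ± 0.926).

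**Figure D4:**
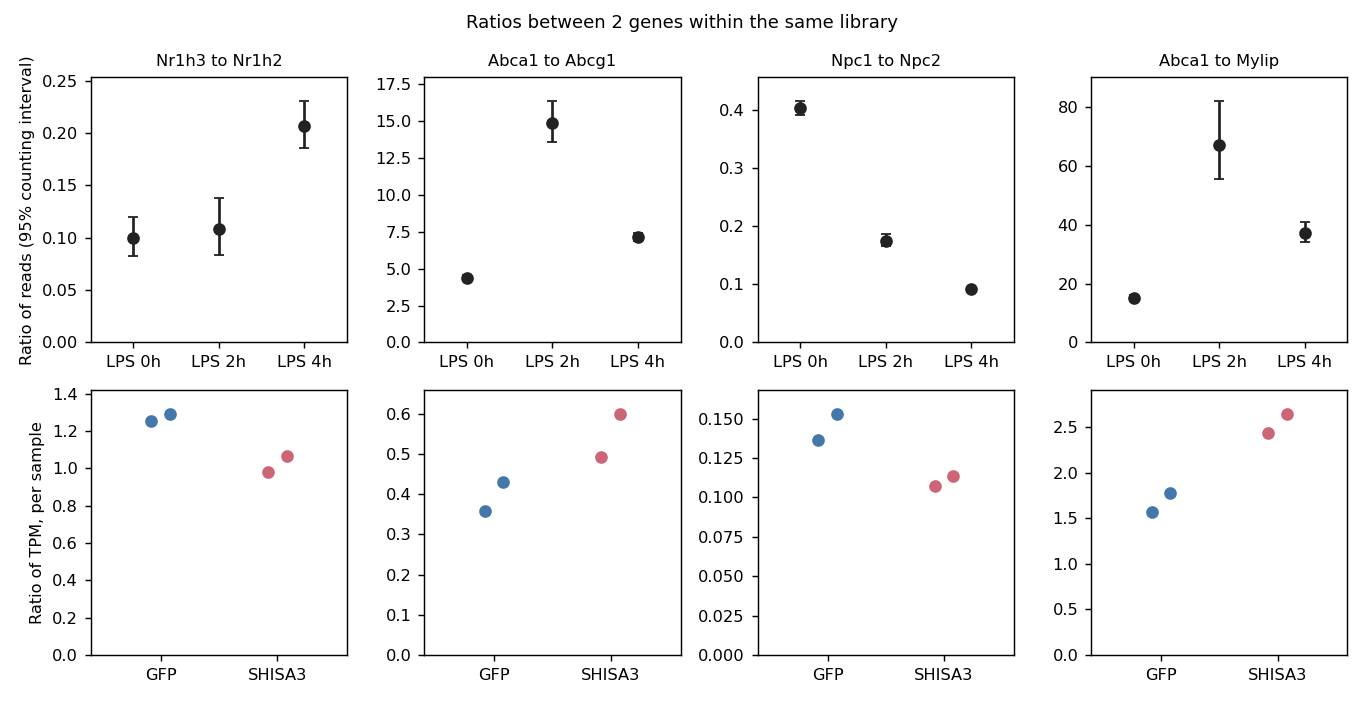
Ratios of one gene to another within the same library: reads at each LPS time with 95% counting intervals (top, not corrected for gene length), and TPM in each AAV sample (bottom). Abca1 to Abcg1 peaks at 14.9 in the 2 h library and Npc1 to Npc2 drops from 0.403 to 0.0918 over the time course. In the AAV samples the groups do not overlap in any of the 4 ratios. Except for Npc1 to Npc2, this follows from the single genes, which already lay apart in opposite directions. Of all single genes tested, 18.2% were higher and 41.2% lower without overlap, and no such share was computed for ratios.

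The pathway lists were read in the AAV comparison beside the 2.23% of all genes that rose and the 4.10% that fell. Of 18 further LXR targets tested, 3 rose and 0 fell (median difference 0.08). Tgm2 went from 113.85 and 114.18 TPM to 307.35 and 322.19 TPM (difference 1.46, adjusted p = 0.00962), Scd1, the stearoyl-CoA desaturase gene, from 2.88 and 3.44 TPM to 8.68 and 6.88 TPM (difference 1.07, adjusted p = 0.0295) and Fads2, a desaturase gene of polyunsaturated fatty acids, from 5.32 and 4.41 TPM to 14.09 and 10.48 TPM (difference 1.17, adjusted p = 0.0279). Srebf1, Lpcat3 and Pltp, other LXR targets, did not pass (differences of -0.19, 0.18 and 0.38). Of 18 uptake, storage and trafficking genes tested, 0 rose and 4 fell (median -0.22). Among those that fell, Nceh1 went from 90.17 and 79.7 TPM to 48.78 and 42.27 TPM (difference -0.89, adjusted p = 0.0207), the sterol carrier gene Stard4 from 6.98 and 6.39 TPM to 2.52 and 2.73 TPM (difference -1.08, adjusted p = 0.0232) and Gramd1b from 31.44 and 29.11 TPM to 21.26 and 21.64 TPM (difference -0.48, adjusted p = 0.0446).

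Of 9 oxysterol enzymes and sensors tested, 1 rose and 1 fell (median 0.23). Insig1 fell, going from 13.78 and 12.94 TPM to 7.54 and 8.19 TPM (difference -0.70, adjusted p = 0.0326). Stard4 and Insig1 are both known to be switched on by SREBP2, and here both fell. Of 14 LXR partners and co-regulators tested, 0 rose and 1 fell (median -0.22), Tbl1xr1, which went from 15.14 and 13.48 TPM to 4.03 and 6.05 TPM (difference -1.36, adjusted p = 0.0237). Rxra was at 25.44 and 31.11 TPM in AAV-GFP and at 17.28 and 22.43 TPM in AAV-SHISA3 (adjusted p = 0.121). Over the lists 4 genes rose and 6 fell, and without any 1 of the 4 samples 0 or 1 and 0 passed. Without the variance trend, or with no filter on low values, 0 list genes passed in either direction.

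Set side by side, the experiments share no samples and were scaled separately. Ch25h was higher in both, at 9.26 for LPS 4h against LPS 0h and 1.85 for AAV-SHISA3 against AAV-GFP on their log2 scales. Npc1, Mylip and Abcg1 were lower in both, at -1.15, -1.12 and -0.51 with LPS and -0.39, -0.29 and -0.17 with AAV-SHISA3, where none of these AAV differences passed. Scarb1 was lower at LPS 4h (-0.91) and rose in AAV-SHISA3 (0.48), and Nr1h3 was higher at LPS 4h (1.46) and at -0.25 in AAV-SHISA3. Among the list genes past the AAV threshold and reported here, Tgm2 was higher in both experiments, and Tbl1xr1, Nceh1 and Gramd1b were lower in both. Insig1 was lower in AAV-SHISA3 and higher with LPS, while Scd1 was higher in AAV-SHISA3 and lower at LPS 4h (-0.87). For Fads2, higher in AAV-SHISA3, and Stard4, lower in AAV-SHISA3, the direction at LPS 4h depended on the scaling.

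**Figure D5:**
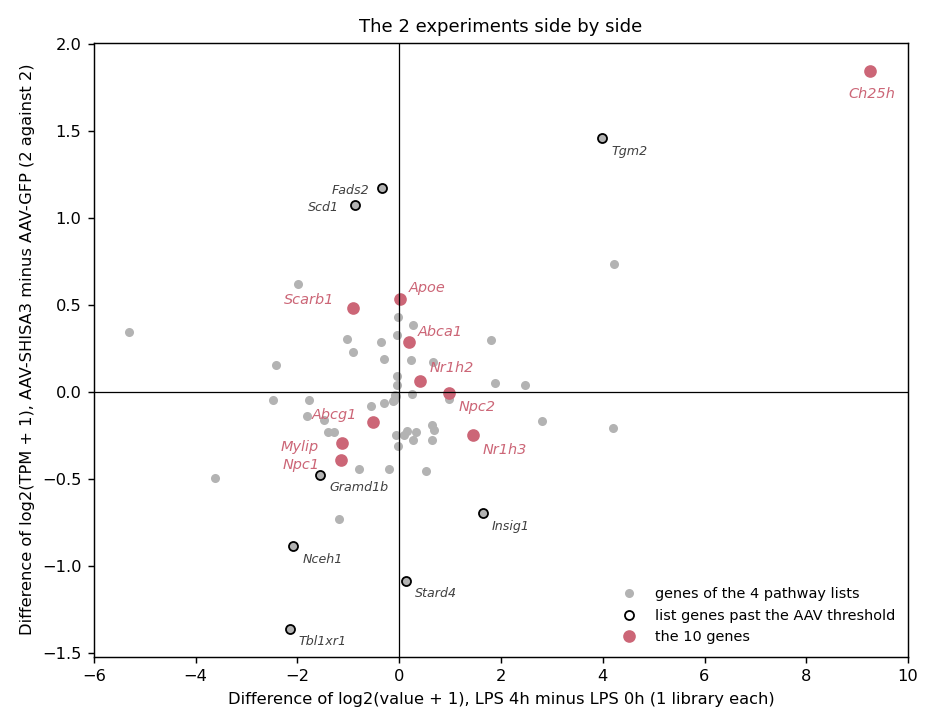
Difference of log2(value + 1) at LPS 4h against LPS 0h (horizontal, 1 library each) and of log2(TPM + 1) in AAV-SHISA3 against AAV-GFP (vertical, 2 against 2) for the 10 genes (red) and the genes of the 4 pathway lists kept in both tables and reported here (grey; ringed where the AAV difference passed). Ch25h lies alone at the upper right (9.26 and 1.85), and Scarb1 lies at -0.91 and 0.48.

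The genes whose pattern was most like that of Ch25h, Abca1 and Nr1h3 were sought among 10519 genes by the distance over 3 log2 differences (LPS 2h and LPS 4h against LPS 0h, and AAV-SHISA3 against AAV-GFP). For Ch25h they were AA467197 (distance 0.971), Tarm1 (1.20) and Il1a (1.31). AA467197 differed by 6.97, 8.90 and 1.21 over these comparisons, Tarm1 by 7.27, 9.23 and 0.69 and Il1a by 8.57, 8.46 and 1.47, so that genes close to Ch25h were sparse. For Abca1 they were Nhp2 (0.0588), Egr2 (0.104) and Gm44126 (0.130), and for Nr1h3 they were Fbxo30 (0.0789), Marf1 (0.0818) and Smarce1 (0.0982), all much nearer.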

How the data were processed

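Total RNA from BMDMs was made into Illumina libraries. The LPS table (1 library per time point) holds a signal per gene deposited by the authors, made by dividing each library's read counts by a single factor. Whole reads were recovered for 100% of the values above 0 (within 0.01 of a whole number). The AAV table (2 AAV-GFP and 2 AAV-SHISA3 samples) holds deposited values with 2 decimals that sum to 999778 to 999818 per sample and were read as TPM, so the depth behind them is unknown. That unit is inferred from the values. The submitters' processing notes name the build mm9, while the aligner, counter and annotation are not given in the sources used here. Positions are from the GRCm38 annotation and promoters from RefSeq, and no position was taken from the tables. In the AAV table, 26 symbols had been turned into dates and 2 were repeated, none of them a member, and 1 macrophage marker (Itgam) that has a repeated symbol in the LPS table was left out there.

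The LPS values were compared as log2(value + 1) in the 17854 genes that averaged 1 or more, with no test. Exact 95% intervals of read ratios cover counting error only. The AAV values were tested as log2(TPM + 1) with limma 3.58.1 (mean-variance trend, R 4.3.3) in the 11218 genes that averaged 1 or more. P-values were adjusted by the Benjamini-Hochberg method and called under 0.05, and scripts were tested on simulated data. TMM factors came from edgeR 4.0.16, and the plots were drawn in Python 3.11.15. The text names all 10 members, the checks of the labels, every gene of the pathway lists past the threshold in the AAV comparison, the 3 list genes with the largest LPS difference at 4 h in each direction (over 3 reads in each library, 1 direction under all scalings), and the 3 genes nearest in pattern to Abca1, Ch25h and Nr1h3. Abcg4, Lipa, Cyp7b1, Sult2b1, Srebf1, Lpcat3, Pltp and the AAV values of Rxra were named after their values were seen. The list counts include a few genes whose own results are not reported here. The members, the lists and the tests were chosen with earlier results of these data known. Alternatives were other scalings, pseudocounts and filters, a fit without the trend, a replicate block and leaving out each sample.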

Additional observations from a re-analysis of the deposited data

How the results depend on the processing

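Over the alternatives, 93 recomputed counts of genes stayed within 1.5 times the reported one and 51 did not. Of the recomputed values of single members, 241 held, 53 LPS values moved beyond counting error (those of Npc2 at 2 h and of Nr1h2, Abca1 and Apoe at 4 h to the other direction), 10 AAV values lost the threshold, 3 gained it and 3 AAV values, all of Npc2, changed sign. Under equal library totals, 4 members were at least 2-fold lower at 2 h, and 1 higher and 4 lower at 4 h, while over all genes 2438 were higher and 7117 lower at 2 h and 2335 and 7845 at 4 h. With library medians centred, 5 members were at least 2-fold higher at 2 h and 0 lower at 4 h, beside 4808 and 3036 of 17854 genes. From 2 h to 4 h, a pseudocount of 5 left 1830 genes higher and 1551 lower, and a mean of at least 5 left 2110 higher.

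In the AAV comparison (250 genes higher, 460 lower; members 2 and 0; pathway list genes 4 and 6), limma without the trend called 1 and 4 genes (811 and 2148 at an unadjusted p under 0.05), 0 members higher (2 unadjusted) and 0 list genes in either direction (12 and 12 unadjusted). With no filter it called 0 and 0 genes (1118 and 2411 unadjusted), 0 members higher and 0 list genes in either direction. Ch25h then had an adjusted p of 0.0557 without the trend and 0.105 with no filter, and Scarb1 of 0.0818 and 0.121. With sample medians centred the split turned to 410 higher and 230 lower, with 7 list genes higher, and Npc2 turned to 0.11. Requiring at least 1 TPM in every sample called 1 member lower, beside 325 genes higher and 617 lower over the whole table. The numbers 1 and 2 are only shared labels (the deviations of the samples numbered 1 correlate at 0.188, over 2 pairs). With them as a replicate block, 424 genes were higher and 851 lower, 1 member lower (Npc1, adjusted p = 0.0398), 7 list genes higher and 11 lower, and Apoe passed (adjusted p = 0.0129). Leaving out each sample in turn, with the lone sample of a group assumed to vary like the other group, gave 0 to 32 genes higher, 0 to 10 lower, 0 to 1 members higher, 0 to 1 list genes higher and 0 to 0 lower, and Npc2 ran from -0.029 to 0.015, turning to 0.0025 without AAV-GFP replicate 1 and 0.015 without AAV-SHISA3 replicate 2. The cause of these changes was not tested. Depth limits Ch25h at 0 h (2 reads) and Nr1h3 at 2 h (70 reads).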

Other observations

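The receptor balance differed between the tables of untreated and of AAV-GFP transduced BMDMs. Per base of the main transcript, Nr1h3 stood at 0.102 times Nr1h2 in the LPS 0h library, 0.110 times at 2 h and 0.212 times at 4 h, whereas the TPM ratio was 1.25 and 1.29 in the AAV-GFP samples. On the same scale Abca1 stood at 2.50 times Abcg1 at 0 h, and the TPM ratio was 0.358 and 0.431 in AAV-GFP. Npc1 stood at 0.254 times Npc2 at 0 h, and the TPM ratio was 0.137 and 0.153 in AAV-GFP. The choice of length moves these values, and per base of all annotated exons the 0 h ratios were 0.133, 3.09 and 0.193. The tables were scaled separately and the AAV samples carry a virus, and these differences were not tested.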
